A study of Mus musculus with 2 samples.

Results

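Immature neutrophils carrying secondary granule transcripts were selected from brain CD45+ leukocytes as barcodes with at most 15% mitochondrial UMIs, at least 1% of UMIs from Camp, Ngp and Ltf together, and fewer than 2 UMIs of the B cell genes Cd79a and Cd79b. A UMI (unique molecular identifier) counts 1 captured transcript molecule. The rule chose 154 of 2478 filtered cells, of which 129 were WT and 25 twi. They were set against mature neutrophils, the cells with at least 1% of UMIs from S100a8 and S100a9 and under 1% from Camp, Ngp and Ltf, of which there were 102 in WT and 43 in twi. Levels are given as CPM, the UMIs of a gene per 1000000 UMIs of the gated cells. Each molecule gives 1 count in this 3′ protocol, so a level does not scale with transcript length.

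The study profiled CD45+ cells sorted by flow cytometry from the brains of untreated C57Bl/6 mice (C57BL/6J in its methods) at postnatal day 21. Twitcher (twi) mice are galc-/- and lack galactosylceramidase, the lysosomal enzyme missing in globoid cell leukodystrophy (Krabbe disease), and their WT littermates are galc+/+. The twi allele is carried by every cell of the animal, blood and marrow cells included. Animals of 1 genotype were pooled into 1 library, so no comparison has a replicate error and no p-value is given. Intervals are exact 95% intervals that cover counting error only, and a library cannot be told apart from its genotype. The files held 3749714 UMIs in 1278 WT barcodes and 4807539 UMIs in 1220 twi barcodes. The 15% mitochondrial limit of the study left 1271 and 1207 barcodes, fewer than the approximate number of cells per library given in its methods. The libraries shared 0 cell barcodes.

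Neutrophils are produced in the bone marrow and load their granules in sequence. Proteases of the primary granules are made first, secondary granule proteins next, gelatinase and other tertiary granule proteins after them, and receptors of the secretory vesicles and cell surface last. Cell division stops during the secondary granule stage, and the mature cell that follows has a segmented nucleus and is short-lived. Camp encodes the antimicrobial peptide cathelicidin, Ngp a neutrophil granule protein of the cystatin type, Ltf the iron-binding lactoferrin, and Lcn2 lipocalin 2, which binds bacterial siderophores. C/EBP epsilon, encoded by Cebpe, is a transcription factor required for the secondary granule genes.

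The upstream sequences of these 4 genes are shown because their transcripts mark the cells. Each is the 250 bases before the annotated RefSeq start in GRCm38.p6, written 5′ to 3′ on the strand of the gene. Camp lies at chr9:109849457-109849706 on the minus strand, Ngp at chr9:110419558-110419807 on the plus strand, Ltf at chr9:111019042-111019291 on the plus strand, and Lcn2 at chr2:32387740-32387989 on the minus strand. Capitals mark matches to TTGCNNAA, a form of the C/EBP core, searched on both strands.
Camp: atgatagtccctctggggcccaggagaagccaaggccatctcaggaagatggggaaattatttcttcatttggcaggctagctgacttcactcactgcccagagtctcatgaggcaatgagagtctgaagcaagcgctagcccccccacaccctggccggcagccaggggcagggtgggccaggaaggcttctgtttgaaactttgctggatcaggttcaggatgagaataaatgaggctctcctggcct
Ngp: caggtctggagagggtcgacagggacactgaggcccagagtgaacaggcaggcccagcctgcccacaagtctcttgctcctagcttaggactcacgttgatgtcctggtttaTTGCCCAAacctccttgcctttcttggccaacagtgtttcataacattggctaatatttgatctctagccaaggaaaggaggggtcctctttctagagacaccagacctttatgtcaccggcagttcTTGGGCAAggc
Ltf: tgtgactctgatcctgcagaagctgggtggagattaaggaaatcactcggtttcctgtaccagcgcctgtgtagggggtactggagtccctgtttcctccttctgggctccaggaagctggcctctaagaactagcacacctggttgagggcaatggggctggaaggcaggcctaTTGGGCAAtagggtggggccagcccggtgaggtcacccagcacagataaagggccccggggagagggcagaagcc
Lcn2: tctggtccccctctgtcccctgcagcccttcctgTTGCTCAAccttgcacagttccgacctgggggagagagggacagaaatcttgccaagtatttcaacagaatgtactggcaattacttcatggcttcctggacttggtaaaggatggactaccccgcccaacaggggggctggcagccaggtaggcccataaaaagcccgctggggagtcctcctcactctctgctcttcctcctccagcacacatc
Ngp held a match at -138 and at -11 from the start, Ltf 1 at -75 and Lcn2 1 at -216, counted to the first base of the match, and the Camp window held none. The letters occurred in 9.56% of 32851 windows of this length and in 5 of 12 windows of the secondary granule list. Other forms of the motif had been looked at, and a match is a description of letters, not a binding site.

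The immature cells were as rich in neutrophil transcripts as their label requires. S100a8 and S100a9, the calprotectin subunits, made up a median of 34.6% of a cell's UMIs in WT and 34.1% in twi, although neither was used to choose the immature cells. The gate share, meaning the percent of a cell's UMIs from Camp, Ngp and Ltf, ran from 1.02 to 17.6 with a median of 6.54 in WT, and from 1.19 to 16.4 with a median of 10.8 in twi. Lcn2, the marker that the rule did not use, was detected in every immature cell of both libraries. Mitochondrial UMIs had a median of 0.44% in WT and 0.349% in twi. In the WT library 6 immature cells had under 20% of UMIs from S100a8 and S100a9, the lowest 3.39%.

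The lower edge of the gate cut through a continuous range. In WT, 19 cells had a gate share from 1% to under 2% and 12 cells from 0.5% to under 1%, and in twi the counts were 3 and 5. The WT cells nearest the limit had 1.02% inside and 0.864% outside. The corresponding twi cells had 1.19% inside and 0.885% outside. The Cd79a and Cd79b limit removed 3 WT cells.

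**Figure D1:**
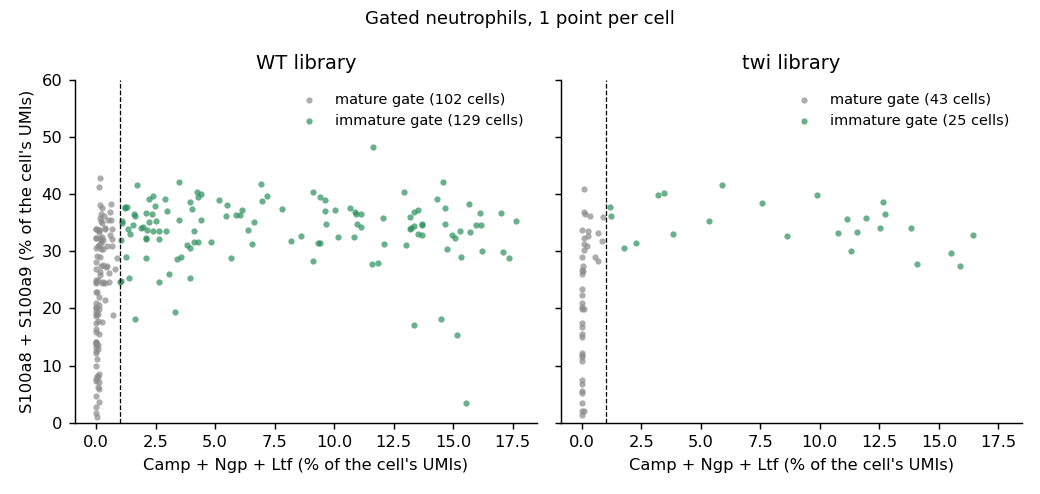
Each point is 1 gated neutrophil, with the percent of its UMIs from Camp, Ngp and Ltf on the x axis and the percent from S100a8 and S100a9 on the y axis, for WT (left) and twi (right). The dashed line is the 1% limit: the 129 WT and 25 twi immature cells spread along the x axis up to 17.6% and 16.4%, and most keep an S100a8 and S100a9 share near 34%.

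Immature neutrophils were a smaller part of the twi library. They made up 10.1% of filtered WT cells (exact binomial interval 8.54 to 11.9) and 2.07% of filtered twi cells (1.34 to 3.04), a twi over WT ratio of shares of 0.204 (0.127 to 0.315). Mature neutrophils made up 8.03% and 3.56%, a ratio of 0.444 (0.303 to 0.64). Within the gated neutrophils the immature share was 55.8% in WT (49.2 to 62.4) and 36.8% in twi (25.4 to 49.3), and the interval of its ratio of 0.658 reached from 0.411 to 1.02. These are shares of sorted CD45+ cells, in which more cells of another type lower the neutrophil share, and 1 pool per genotype does not give the spread between animals.

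Immature cells held more UMIs than mature ones. The median was 3469 UMIs and 842 genes per immature WT cell and 4665 UMIs and 1046 genes per immature twi cell, against 1286.5 and 1699 UMIs per mature cell. The most abundant transcripts in both libraries were S100a8, at 216868 CPM in WT and 215902 in twi, and S100a9, at 123886 and 125581. Ngp followed with 46530 and 54669.8 CPM and Camp with 39419.5 and 40418, both part of the rule. Tmsb4x, which encodes an actin-sequestering peptide, had 21102 and 22706.3 CPM, and Lyz2, lysozyme, 18248.8 and 22471.8. Retnlg, a resistin-like secreted protein, had 20247 and 15381.4 CPM.

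Neutrophil transcripts were also found at a low level in other cells. Among B cells, taken as filtered cells with 2 or more UMIs of Cd79a and Cd79b and a gate share under 1%, which should lack these genes, Camp was detected in 20.6% of 593 WT cells and 4.15% of 193 twi cells, at median depths of 2026 and 2262 UMIs. Ngp was detected in 32.5% and 16.6% and Lcn2 in 10.3% and 5.7%.

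The mature gate, the reference for every stage ratio, was less uniform than the immature one. Of its 102 WT cells 36 had under 20% of UMIs from S100a8 and S100a9, as did 18 of 43 twi cells. These cells held 518 of the 523 microglia marker UMIs of the WT mature gate, 183 of which came from 1 cell, against 309 in the WT immature gate, and 86 of 88 NK marker UMIs of the twi mature gate came from 1 cell. Where a stage ratio of a named gene moved by over 1.5 times or across 1 with mature cells at 20% or more (66 WT and 25 twi cells, an alternative chosen after seeing the data), that value is given too.

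The question put to the mature gate was how far the granule programme differed between the stages. Against mature cells, 158 of 2180 genes compared in WT (7.25%) were at least 2-fold higher in immature cells and 473 (21.7%) at least 2-fold lower. In twi, 75 of 866 genes (8.66%) were at least 2-fold higher and 288 (33.3%) at least 2-fold lower. The median log2 ratio of all genes was -0.37 in WT and -0.47 in twi. With Camp, Ngp, Ltf, S100a8, S100a9 and mitochondrial genes left out of the total, the percent of genes higher and lower became 13.9 and 11.3 in WT, and 16.3 and 17.8 in twi. All ratios below describe a contrast that the choice of cells fixes in part.

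Most secondary granule genes outside the rule were higher in immature cells in both libraries. In WT, 9 of the 10 list members with enough UMIs were higher, 6 of them at least 2-fold, with a median log2 ratio of 1.71, and in twi all 9 such members were higher, 5 at least 2-fold, with a median of 2.09. Over all genes with at least 10 UMIs, 1423 of 4155 were higher in WT and 634 of 1954 in twi. With mature cells at 20% or more the medians of the list were 1.35 and 1.36, with 6 of 10 and 6 of 9 members higher. Chil3, a chitinase-like lectin, had 5316.2 CPM in immature and 214.3 in mature WT cells, and 6806.2 and 137 in twi cells. Its ratio was 24.8 (18 to 35.1) in WT and 49.7 (28.3 to 96.5) in twi. In WT 34 of the 38 mature Chil3 UMIs came from 1 cell with 8323 UMIs and 1.09% S100a8 and S100a9, and without it the mature level was 23.7 CPM and the ratio 225 (87.6 to 825). With mature cells at 20% or more the ratios were 328 (90.7 to 2709) and 35.8 (19.4 to 74.9), so the order of the libraries is not given by these ratios. Lcn2 had 12338.4 and 2544 CPM in immature and mature WT cells, and 14280.2 and 2203 CPM in twi, with ratios of 4.85 (4.41 to 5.35) and 6.48 (5.59 to 7.55), the latter 4.04 (3.48 to 4.72) with mature cells at 20% or more.

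Other members were higher by less, and a few were level. Cd177, a surface glycoprotein stored in these granules, had ratios of 2.52 (2.01 to 3.2) in WT and 4.33 (2.86 to 6.81) in twi, or 2.6 in twi with mature cells at 20% or more. Itgb2l, a beta 2-like integrin, had 4.4 (2.55 to 8.21) and 5.69 (2.61 to 14.7), the latter then 3.42. Pglyrp1, a peptidoglycan recognition protein, had 1.1 (1.02 to 1.2) and 1.15 (1.01 to 1.32), which turned to 0.925 (0.849 to 1.01) and 0.804 (0.701 to 0.924) with mature cells at 20% or more. Mmp8, the neutrophil collagenase, had 1.09 (0.957 to 1.24) and 1.22 (0.988 to 1.52), which turned to 0.832 (0.727 to 0.955) and 0.757 (0.611 to 0.941). Hp, haptoglobin, had 0.853 (0.768 to 0.949) and 1.02 (0.866 to 1.21), the latter then 0.862 (0.716 to 1.04). Fcnb, the recognition lectin ficolin B, had 139 UMIs in 20 WT and 6 UMIs in 5 twi immature cells and 0 UMIs in both mature gates. Orm1, an acute-phase glycoprotein, had 27 and 12 UMIs in immature cells and 0 in mature cells.

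Cebpe, Serpinb1a and AA467197, which lie outside that list, were also higher in immature cells. Cebpe had 453 CPM in immature and 28.2 in mature WT cells, and 589.7 and 68.5 in twi cells, ratios of 16.1 (6.78 to 49.9) and 8.61 (3.79 to 24.1). At least 1 Cebpe UMI was found in 65.1% of WT and 88% of twi immature cells, against 4.9% and 9.3% of mature cells, at the median depths given above. Thinned to 1000 UMIs per cell, which left out 5 WT immature, 27 WT mature and 1 twi mature cell, the shares were 33.9% (25.6 to 42.9) and 40% (21.1 to 61.3) of immature and 2.67% and 2.38% of mature cells. No background share in B cells was counted for Cebpe. Serpinb1a, an inhibitor of neutrophil proteases, had ratios of 6.73 (3.94 to 12.5) and 10.5 (4.31 to 33). AA467197, a transcript also known as the NMES1 homologue, had 8.03 (4.29 to 17) and 6.54 (2.84 to 18.5).

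The remaining genes that the naming rule placed highest were membrane, cytoskeletal and chromatin genes. Cybb, the catalytic subunit of the phagocyte oxidase, had 786.4 CPM against 163.6 in WT and 696.2 against 137 in twi, ratios of 4.81 and 5.08. The rest of the NADPH oxidase list lay closer to level, with a list median log2 ratio of 0.14 and 0.39, or -0.01 and 0.15 with mature cells at 20% or more. Ifitm6, an interferon-induced transmembrane family member, had ratios of 4.77 and 4.53, and Anxa3, an annexin of neutrophil granule membranes, 4.81 (2.75 to 9.22) and 15.2 (4 to 129), the former 8.71 with mature cells at 20% or more. Anxa1, an annexin that limits neutrophil recruitment, had 3.18 (2.76 to 3.68) and 3.39 (2.78 to 4.16). Dstn, an actin-depolymerising factor, had 4.11 and 3.51, and Hmgn2, a nucleosome-binding protein, 3.66 and 3.77.

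Primary granule transcripts were nearly absent. Over the 3 members of the list that reached 10 UMIs in the WT comparison the sum was 33 UMIs in immature and 1 in mature cells, and none reached that number in twi. Prtn3, proteinase 3, had 13 UMIs in 5 WT immature cells and 0 in twi, Elane, neutrophil elastase, 7 and 0, Mpo, myeloperoxidase, 4 and 0, and Ctsg, cathepsin G, 1 and 0. The selected cells thus hardly contained the transcripts of the preceding granule stage.

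Most members of the later granule and surface lists were lower in immature cells, as were most genes. Over all genes with at least 10 UMIs, 2732 of 4155 were lower in WT and 1320 of 1954 in twi. The tertiary members compared are too few to set their counts apart from these shares. The shares also stand beside the counts of lower members below. In the tertiary granule list 5 members were lower and 1 higher in WT, with a median log2 ratio of -1.14, and in twi 5 were lower and 0 higher, with -1.23. Retnlg had 20247 CPM in immature and 44594.9 in mature WT cells and 15381.4 and 35980.5 in twi, ratios of 0.454 (0.441 to 0.468) and 0.427 (0.405 to 0.452), the latter 0.275 with mature cells at 20% or more. Mmp9, gelatinase B, had ratios of 0.76 (0.672 to 0.861) and 0.777 (0.619 to 0.977). In the secretory vesicle and surface list 15 of 17 members were lower in WT, 13 of them at least 2-fold, and 14 of 17 in twi, also 13 at least 2-fold, with median log2 ratios of -1.61 and -2.02.

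The receptors differed among themselves. Cxcr2, the receptor for CXCL1 and CXCL2 that directs release from marrow, had 219.6 CPM in immature and 671.2 in mature WT cells and 127.9 and 662.1 in twi, ratios of 0.327 (0.251 to 0.427) and 0.193 (0.107 to 0.333). Csf3r, the G-CSF receptor, had ratios of 0.185 (0.136 to 0.25) and 0.0766 (0.0317 to 0.16). Clec4d, a C-type lectin, had 0.0766 (0.049 to 0.116) and 0.0426 (0.0134 to 0.104), and Ccrl2, an atypical chemerin receptor, 0.0511 and 0.047. Ltb4r1, the leukotriene B4 receptor, went the other way, with 537.3 CPM in immature and 197.4 in mature WT cells and 618.1 and 114.2 in twi.

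Inflammatory mediators had the lowest median of the lists of gene function, -2.93 in WT with 11 of 11 members lower and -3.13 in twi with 10 of 11 lower. With mature cells at 20% or more the medians were -1.51 and -1.86, and they were then the lowest in neither library. Il1b, interleukin 1 beta, had 90.2 CPM in immature and 2442.4 in mature WT cells and 21.3 and 4646 in twi, ratios of 0.0369 (0.0266 to 0.0501) and 0.00459 (0.000942 to 0.0135). With mature cells at 20% or more the mature levels were 867.4 and 1994.9 CPM and the ratios 0.104 (0.072 to 0.148) and 0.0107 (0.00217 to 0.0321). Cxcl2, a neutrophil-attracting chemokine, had 762.8 and 6108.8 CPM in WT and 447.6 and 6769.2 in twi. At least 1 Il1b UMI was found in 10.9% of WT and 12% of twi immature cells, and in 56.9% and 72.1% of mature cells. In B cells, which were less deep than the immature cells, the shares were 2.53% and 1.55%. Thinned to 1000 UMIs the shares were 6.45% (2.83 to 12.3) and 4% (0.101 to 20.4) of immature and 48% and 71.4% of mature cells. The thinned twi interval held the B cell share.

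Ccl6, a chemokine of myeloid cells, had ratios of 0.0677 (0.0558 to 0.0816) in WT and 0.0552 (0.0355 to 0.0826) in twi. The chemokine Ccl4 had 0.0361 and 0.0778, but 35 of its 77 WT and 19 of its 32 twi mature UMIs came from 1 cell each, and with mature cells at 20% or more the ratios were 0.161 and 0.499. Ccl3 had 0.13 and 0.107, and 0.452 and 0.224 with those cells. Of the other genes placed lowest, the stress-response factor Atf3 had 0.0397 and 0.0415 (0.138 and 0.125 with mature cells at 20% or more), and Pla2g7, the platelet-activating factor acetylhydrolase, had 6 and 0 UMIs in immature cells against 59 and 34 in mature ones. Sirpb1b, a signal-regulatory protein, had ratios of 0.0535 and 0.0222, Pim1, a serine/threonine kinase, 0.133 and 0.0346, and Cytip, a cytohesin-interacting protein, 0.14 and 0.149. Against mature cells at 20% or more Pim1 had 0.213 and 0.066, and the WT ratios of Cytip, Pla2g7 and Ccrl2 were 0.231, 0.066 and 0.0864.

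Lyz2 had ratios of 1.84 (1.75 to 1.94) in WT and 2.57 (2.38 to 2.79) in twi, and Wfdc21, a whey acidic protein-type inhibitor at 7616.1 CPM in twi immature cells, 2.01 (1.85 to 2.18) and 3 (2.6 to 3.49). Among lists of general cell functions, glycolysis genes had median log2 ratios of 0.34 and 0.63 and ER folding and secretion genes -0.14 and -0.30, which became 0.91 and 0.42 with mature cells at 20% or more. Cytosolic ribosomal proteins had -0.35 in WT, with 60 of 77 members lower, close to the -0.37 of all genes, of which 2732 of 4155 were lower, and -1.28 in twi, with 76 of 77 lower. The ribosomal medians changed sign with mature cells at 20% or more, to 0.40 and 0.24, so no direction by stage is given for this list. MHC class I genes had -0.74 and -0.84.

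Transcription factors split by stage. In the granulocyte list Cebpe alone was higher in each library, while 7 members were lower in WT and 5 in twi, and with mature cells at 20% or more 2 of 7 were higher in WT and 1 of 6 in twi. Cebpb, the C/EBP factor of mature and stress-induced granulocytes, had 429.5 CPM in immature and 1861.4 in mature WT cells and 369.4 and 1929.2 in twi. Junb, an AP-1 subunit, had ratios of 0.24 and 0.176, Fos, its partner, 0.28 and 0.351, and Spi1, which encodes PU.1, 0.556 and 0.679. Interferon-stimulated genes were lower in immature cells in 17 of 19 members in WT and in 17 of 17 in twi, with median log2 ratios of -1.31 and -2.47, or -0.95 and -0.71 with mature cells at 20% or more.

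**Figure D2:**
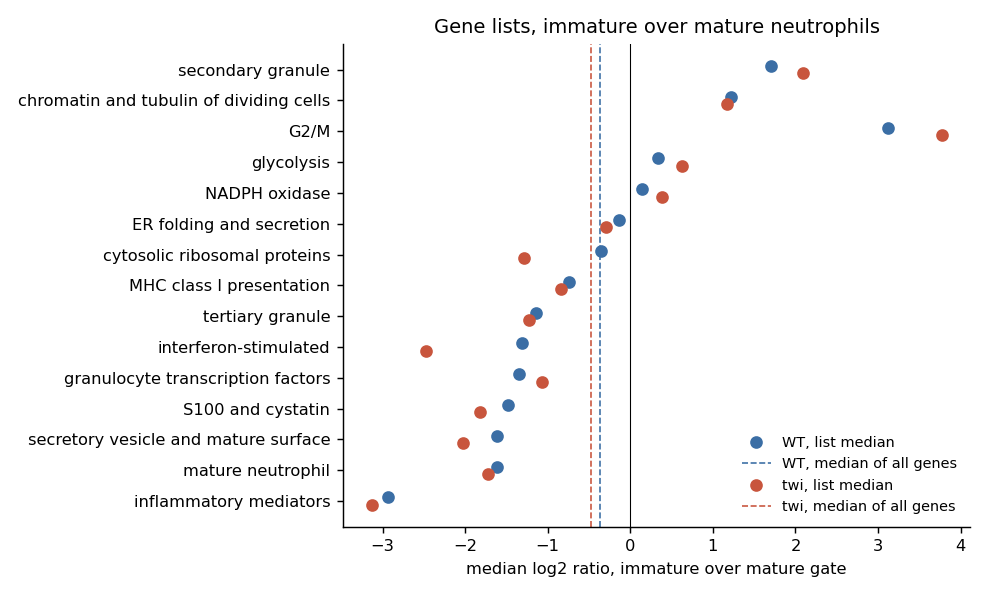
Each point is the median log2 ratio, immature over mature gate, of 1 gene list on the x axis, with WT in blue and twi in red, and dashed lines at the median of all genes (-0.37 and -0.47). The secondary granule, chromatin and G2/M lists lie to the right of 1, the chromatin list at -0.14 and -0.21 without the cells with 3 or more G2/M UMIs (not drawn), while inflammatory mediators lie furthest left, at -2.93 and -3.13 (-1.51 and -1.86 with mature cells at 20% S100a8 and S100a9 or more, not drawn); no interval is drawn because members are not replicates.

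Within the immature cells, several genes that the rule did not use varied with the gate share. The 129 WT cells were split into ranges of the gate share starting at 1%, 2%, 5% and 10%, which held 19, 37, 24 and 49 cells, and the 25 twi cells into 3, 4, 5 and 13. Chil3 had 270, 693, 2179 and 8923 CPM across the WT ranges and 249, 233, 2873 and 9202 across the twi ranges. Lcn2 had 6231, 8401, 12082 and 14836 CPM in WT, and Cebpe 225, 279, 297 and 609, against 498, 233, 423 and 686 in twi. These transcripts were most abundant where the gate share was highest, while Cd177 had 967, 1252, 1197 and 1239 CPM in WT and Actb 22810, 23300, 9095 and 17171, in no such order.

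Other transcripts were lowest where the gate share was highest. Retnlg had 50794, 46331, 29494 and 2604 CPM across the WT ranges and 53196, 48284, 24846 and 5490 across the twi ranges. Mmp8 had 2969, 2514, 3151 and 996 CPM in WT, and Cxcr2 495, 372, 358 and 70.1. S100a6, a calcium-binding protein, had 6816, 5587, 3161 and 756 CPM. The largest step in WT for Retnlg, Mmp8 and Cxcr2 lay between the range from 5% and the range from 10%, in cells whose median depth was 3708.5 and 4620 UMIs.

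Fcnb was found in the top range only, with 513 CPM in WT and 62.4 in twi, and so were all 13 Prtn3 UMIs. The cells below a gate share of 10% held no Fcnb UMI in either library. S100a8 stayed between 203514 and 222087 CPM across the WT ranges. Summed over its 19 cells, the lowest WT range had 50794 CPM of Retnlg, against 44594.9 CPM in the mature gate. In WT mature cells at 20% S100a8 and S100a9 or more Retnlg had 59455.4 CPM. Lcn2 in the lowest range, at 6231 CPM, lay above the mature level of 2544 CPM.

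**Figure D3:**
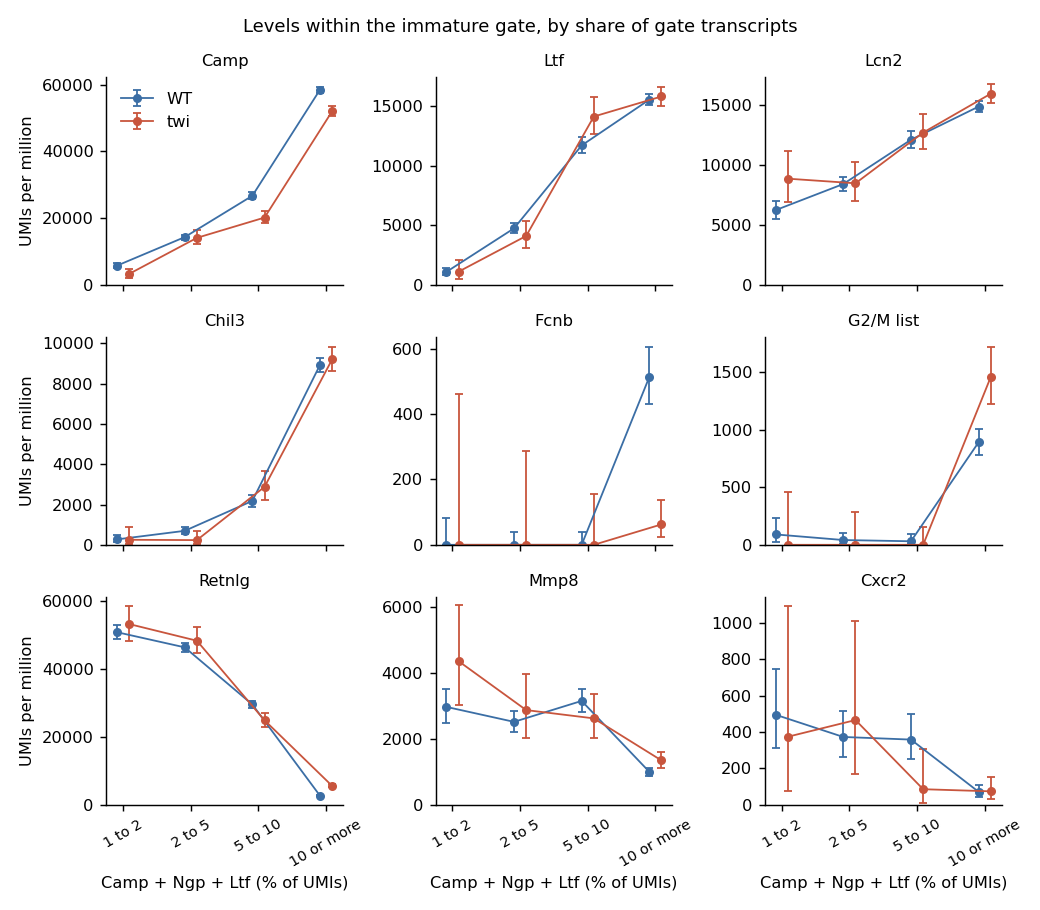
Levels in CPM on the y axis against ranges of the percent of UMIs from Camp, Ngp and Ltf on the x axis, for 8 genes and the summed G2/M list, WT in blue and twi in red; bars are exact Poisson 95% intervals. Camp and Ltf define the x axis; Lcn2, Chil3, Fcnb and the G2/M list are highest in the range from 10%, and Retnlg, Mmp8 and Cxcr2 are lowest there.

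Cell cycle transcripts were concentrated in few immature cells. Of the 129 WT cells 11 carried 3 or more UMIs of the G2/M list (8.53%, 4.33 to 14.7), as did 2 of 25 twi cells (8%, 0.984 to 26). In the mature gate the counts were 1 of 102 WT cells (0.98%) and 0 of 43 twi cells, with an exact upper limit of 8.22% (6.98% as 3 counts of 43). Thinned to 1000 UMIs per cell, 3 of 124 WT (2.42%, 0.502 to 6.91) and 2 of 25 twi immature cells (8%, 0.984 to 26) had 3 or more, against 0 of 75 and 0 of 42 mature cells. The intervals of the 2 libraries overlapped at both depths.

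These cells accounted for nearly all G2/M transcripts. They held 234 of 252 G2/M UMIs of the WT immature cells (92.9%) and 139 of 140 of the twi cells (99.3%). Their gate share was 11.6 to 17.1% in WT and 12.7 to 15.9% in twi, so all lay in the range from 10%. Top2a, topoisomerase II alpha, had 17 UMIs in 6 WT cells and 14 UMIs in 2 twi cells, and Mki67, the proliferation antigen Ki-67, was found in 7 and 2 cells. Stmn1, a microtubule-destabilising protein, had 64 and 24 UMIs in immature cells and 1 and 0 in mature cells.

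Over all 26 G2/M members the immature gate held 252 UMIs and the mature gate 20 in WT, a ratio of sums of 4.38 (2.78 to 7.29), and 140 against 6 in twi, a ratio of 14.5 (6.51 to 40.2). Only 10 members in WT and 6 in twi reached 10 UMIs, nearly all of them UMIs of immature cells, so the list medians of 3.12 and 3.77 were largely set by that minimum, and with no minimum they were 1.79 and 2.49. The WT median was -0.64 without the cells of either gate that carried 2 or more UMIs of T, NK, B or microglia markers, which left 100 immature and 87 mature WT cells.

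Chromatin and tubulin genes, all 9 of which reached 10 UMIs, had medians of 1.22 in WT and 1.17 in twi. Without the cells with 3 or more G2/M UMIs, 11 immature in WT and 2 in twi, the medians were -0.14 and -0.21, so their direction rested on those cells, while the ratios of sums moved from 1.84 and 2.14 to 1.21 (1.09 to 1.33) and 1.31 (1.13 to 1.52). The WT median was -0.38 when cells with erythroid or other markers were left out, which kept 21 immature WT cells. Hmgb2, a chromatin-binding protein, had 2249.2 CPM in WT and 2607.4 in twi immature cells, Hmgn2 1425.6 and 1548.8, and H2afz, a histone variant, 1055 and 1328.6.

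Over all 20 members the S phase list had 227 UMIs in immature and 37 in mature WT cells, a ratio of sums of 2.13 (1.5 to 3.11), and 35 and 18 in twi, a ratio of 1.21 (0.667 to 2.27). These transcripts too lay in few cells, since 6 WT cells held 180 of the 227 UMIs and 2 twi cells 31 of the 35. Without the cells with 3 or more G2/M UMIs the ratios were 0.651 (0.421 to 1.02) in WT and 0.166 (0.0408 to 0.503) in twi. The WT list median then turned from 1.28 to -0.54, so the WT direction rested on those cells. In twi the interval with those cells spanned 1, so it gave no direction. Cells with 3 or more S phase UMIs made up 4.65% of WT (1.73 to 9.85) and 8% of twi immature cells (0.984 to 26). Thinned to 1000 UMIs they were 4 of 124 WT cells (3.23%, 0.886 to 8.05) and 0 of 25 twi cells, with an exact upper limit of 13.7% (12% as 3 counts of 25), so no order of the libraries is given.

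The cycling WT cells differed from the 38 other cells of the range from 10% in granule content. Fcnb was 6.58 times as high in them (4.4 to 10.1), Prtn3 had 11 UMIs against 2, and Chil3 was 1.38 times as high. Ltf and Lcn2 were at 0.731 and 0.726 of the level in the other cells. Retnlg was at 0.0874, Mmp8 at 0.0524, Mmp9 at 0.0979, S100a6 at 0.0904 and Ly6g, a surface antigen of mouse neutrophils, at 0.177 (0.114 to 0.262). By stage Ly6g was not lower in immature cells. Against mature cells at 20% or more its immature over mature ratio was 1.1 (0.908 to 1.34) in WT and 2.42 (1.72 to 3.5) in twi. In the 2 twi cycling cells Chil3 was 2.37 times as high as in the 11 other cells of that range, Ltf was at 0.627, and Retnlg had 0 UMIs against 528. The cycling cells were deeper, with medians of 6811 and 11621 UMIs against 4420 and 6276, and 7 of 11 WT and 2 of 2 twi cells carried 2 or more UMIs of T, NK, B or microglia markers.

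**Figure D4:**
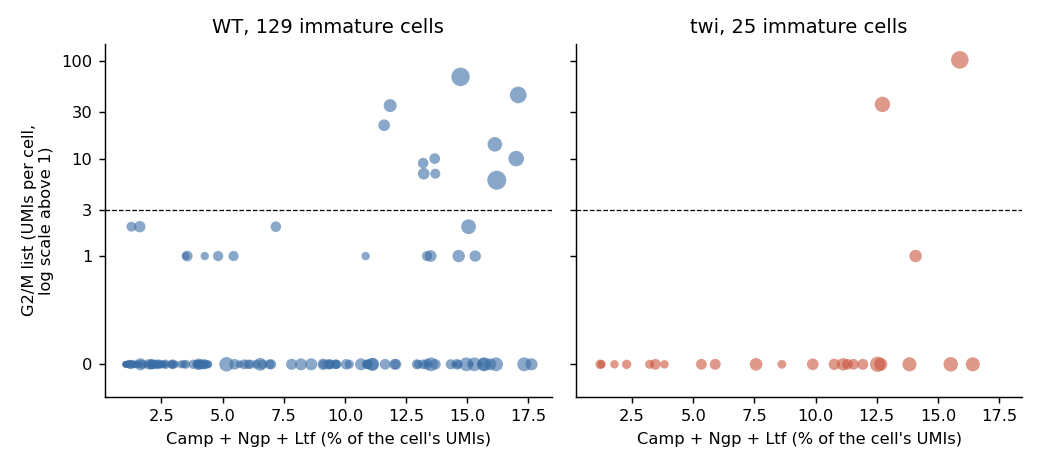
Each point is 1 immature cell, with its percent of UMIs from Camp, Ngp and Ltf on the x axis and its UMIs of the G2/M list on the y axis, which is logarithmic above 1; point area grows with the cell's total UMIs. The 11 WT and 2 twi cells at or above the dashed line at 3 UMIs all lie between 11.6% and 17.1% on the x axis.

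Between the genotypes the immature cells differed by 2-fold at under 10% of genes. Of 1921 genes compared, 48 (2.5%) were at least 2-fold higher in twi and 124 (6.45%) at least 2-fold lower, with a median log2 ratio of 0.02 over all genes. In the mature gate 101 of 1168 genes (8.65%) were at least 2-fold higher in twi and 64 (5.48%) lower, but with mature cells at 5% S100a8 and S100a9 or more the percentages were 3.67 and 5.85. A larger part of the twi immature cells lay in the range from 10% (13 of 25 against 49 of 129), so the ratios of named genes are also given within that range.

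The granule lists differed in their twi over WT sums. Secondary granule genes outside the rule had a twi over WT ratio of 1.12 (1.08 to 1.15) over all immature cells. Within the range from 10% Lcn2 had 14836 CPM in WT and 15908 in twi, and Chil3 8923 and 9202, with overlapping intervals for each gene. Of 10 members of the secondary granule list 8 were higher, 0 of them by 2-fold, and 2 were lower, 1 of them at least 2-fold. Over all genes with at least 10 UMIs, 1960 of 3802 were higher in twi immature cells, the share to set beside such counts. Tertiary granule genes had a ratio of sums of 0.767 (0.734 to 0.802) but a median log2 ratio of 0.30, with 4 of 6 members higher, and 1.08 within the range from 10%. The sum is mostly Retnlg, whose ratio was 0.76 (0.725 to 0.796) over all immature cells and 2.11 (1.88 to 2.36) within the range from 10%. Cxcl2 turned in the same way, from 0.587 (0.442 to 0.767) to 2.01 (1.08 to 3.7). Ly6g was higher in both, at 1.49 (1.28 to 1.73) and 1.62 (1.34 to 1.94). The secretory vesicle and surface list had a ratio of 0.992.

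Cd14, the lipopolysaccharide co-receptor, had the largest twi over WT ratio of the named genes. Its level was 58.8 CPM in WT and 270 CPM in twi immature cells, a ratio of 4.59 (2.77 to 7.67), and it was found in 14% of WT and 40% of twi cells, or 6.45% (2.83 to 12.3) and 16% (4.54 to 36.1) when thinned to 1000 UMIs. The thinned intervals overlapped, and no background share in B cells was counted for Cd14. Within the range from 10% the ratio was 8.17 (3.87 to 18.8). In mature cells it was 3 (2.06 to 4.38), from 282 to 844.7 CPM, and 2.81 (1.6 to 4.99) in mature cells at 20% or more, so Cd14 was higher in twi at both stages. Nfkbia, the NF-kappa-B inhibitor alpha, also stood higher in twi at both stages, with 1.71 (1.34 to 2.17) in immature cells, 2.46 (1.79 to 3.39) within the range from 10%, and 2.67 (2.21 to 3.23) in mature cells.

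Other genes higher in twi had low levels. Ly6c1, a surface antigen with a near-identical neighbour gene that can share its reads, had 76.5 CPM in WT immature cells against 241.6 in twi ones, or 3.16 times as much (1.93 to 5.14), and 3.76 within the range from 10%. Anxa5, a phosphatidylserine-binding annexin, had 2.59 (1.48 to 4.45), Mrgpra2b, a Mas-related G protein-coupled receptor, 2.58 (1.64 to 4.01), and Il1r2, the decoy receptor for interleukin 1, 1.92 (1.24 to 2.94). Aurkaip1 had 1.98 (1.22 to 3.18) and Slc25a5, a mitochondrial ADP/ATP carrier, 1.87 (1.18 to 2.91). Within the range from 10% the ratios of these genes, in the same order, were 3.57, 2.7, 2.29, 2.28 and 1.84. Gm5483, a stefin A family gene, had a ratio of 3.77 (2.92 to 4.87), but 96 of its 128 twi UMIs came from 1 cell, and without that cell the ratio was 0.964 (0.632 to 1.43). It had 2 WT and 0 twi UMIs within the range from 10%.

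Actb, beta actin, was the most abundant gene with a difference of at least 2-fold. It had 17276.2 CPM in WT and 6600.2 in twi immature cells, a ratio of 0.382 (0.357 to 0.409), and 0.258 (0.233 to 0.285) within the range from 10%. Actb was also lower in twi in the ranges from 1% and 2%. In the range from 5% it was higher in twi, with 9095 CPM in WT and 12338 in twi. There 1 of 5 twi cells held 194 of 292 Actb UMIs. Per cell the WT level ran from 1432.79 to 186441 CPM with a median of 11616, and the twi level from 2071.38 to 41586.3 with a median of 4592.77. The cells of both libraries overlapped, and the twi median lay below the WT median. In mature cells the ratio was 0.754 (0.7 to 0.812), from 14789.7 to 11152.6 CPM.

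Fcnb had a lower summed level in twi, with 272.6 CPM in WT and 42.6 in twi immature cells, a ratio of 0.156 (0.0564 to 0.349), and with 512.7 and 62.4 CPM in the range from 10%, a ratio of 0.122 (0.0439 to 0.272). Of its 139 WT UMIs 107 lay in the 11 cells with 3 or more G2/M UMIs. The other cells of that range had 178 CPM in WT and 54.8 in twi. At least 1 Fcnb UMI was found in 15.5% of WT and 20% of twi immature cells, or 7.26% and 0% when thinned to 1000 UMIs. Primary granule genes had 24 UMIs in WT and 0 in twi over the 2 members compared. The S phase list had a ratio of sums of 0.502 (0.322 to 0.753) and the G2/M list 1.96 (1.55 to 2.47), both resting on the few cells described above. Stfa2l1, a stefin A gene with near-identical copies, had 229.4 and 49.7 CPM, a ratio of 0.217 (0.0853 to 0.461), or 0.0634 without the cell that held 5 of its 7 twi UMIs, with 1 and 2 UMIs in the range from 10%.

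Other genes placed lowest were Fam101b, at 0.333 (0.139 to 0.686), Rasgrp4, a Ras activator of myeloid and mast cells, at 0.362 (0.151 to 0.749), and Cd84, a SLAM family receptor, at 0.372 (0.155 to 0.769). Within the range from 10% their ratios were 0.506 (0.191 to 1.14), 0.503 (0.152 to 1.32) and 0.512 (0.128 to 1.51), and all 3 intervals spanned 1. Cst3, cystatin C, which is abundant in microglia, had 960.9 CPM in WT and 355.2 in twi, with a ratio of 0.37 (0.271 to 0.495). Without the WT cell with most microglia marker UMIs the ratio was 0.887 (0.637 to 1.21), and within the range from 10% it was 0.9 (0.576 to 1.37).

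The interferon-stimulated list had a twi over WT ratio of sums of 0.983 (0.869 to 1.11) in immature cells, with 13 members higher and 5 lower. Over all 34 members it had 1494 CPM (1352 to 1647) in WT and 2121 (1840 to 2433) in twi within the range from 10%. In the ranges from 1%, 2% and 5% it had 2879, 4677 and 3212 CPM in WT and 3488, 3648.5 and 3085 in twi. In mature cells the ratio of sums was 1.99 (1.8 to 2.21), with 16 of 19 members higher, beside 1262 of 2451 of all genes. But it was 0.947 (0.792 to 1.13) in mature cells at 20% S100a8 and S100a9 or more, so no difference beyond counting error was seen there. Isg15, a ubiquitin-like protein induced by interferon, had 66.7 and 56.8 CPM in WT and twi immature cells and 180.5 and 605 CPM in mature cells, of which the twi cells at 20% or more held 0 UMIs. Cytosolic ribosomal proteins had 1.07 (1.03 to 1.1) in immature cells and 1.9 (1.83 to 1.96) in mature cells, where 76 of 77 members were higher. In mature cells at 20% or more they had 1.13 (1.06 to 1.2), still above 1. MHC class I genes had 1.08 in immature cells and 1.35 and 1.03 in the mature sets. Inflammatory mediators had 0.989 (0.872 to 1.12) in immature cells and 1.26 (1.18 to 1.33) and 1.34 (1.23 to 1.46) in the mature sets. Their median log2 ratio in immature cells ran from -0.43 to 0.63 over the alternatives, so no direction is given there. Within the range from 10% Cxcl2 was at 2.01 (1.08 to 3.7) and Il1b at 0.235 (0.00549 to 1.59).

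**Figure D5:**
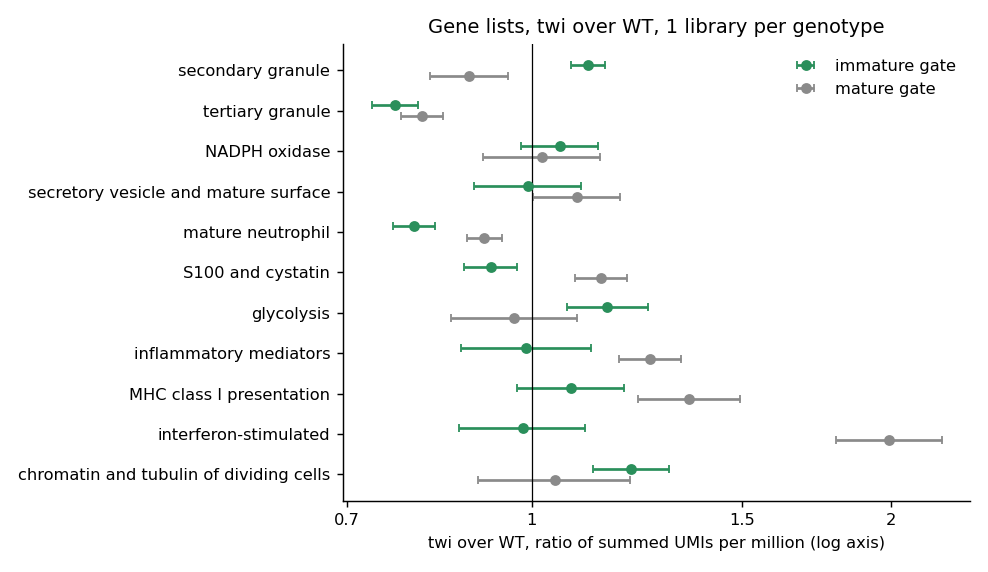
Ratio of summed CPM, twi over WT, on a logarithmic x axis for 11 gene lists, with the immature gate in green and the mature gate in grey; bars are exact 95% intervals of counting error, with 1 library per genotype. The interferon-stimulated list lies at 0.983 in immature and 1.99 in mature cells (0.947 in mature cells at 20% S100a8 and S100a9 or more, not drawn), and the secondary granule list at 1.12 and 0.886 (1.06, interval 0.976 to 1.15, in those mature cells). Within the gate share range from 10%, not drawn, the interferon-stimulated list had 1494 CPM in WT and 2121 in twi immature cells.

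Markers of other cells were counted in the immature gate. Microglia markers had 309 UMIs in WT, 248 of them in 1 cell with 5784 UMIs and a gate share of 1.64%, and 11 UMIs in twi. B cell markers had 96 UMIs in WT, led by Cd74 with 50, and 5 in twi, T cell markers 23 and 27, NK markers 15 and 3, and dendritic markers 26 and 7. Per cell the T cell markers had 0.178 UMIs in WT and 1.08 in twi. Of the 129 WT cells 2 carried 2 or more of these UMIs, as did 7 of 25 twi cells. B cell and microglia markers went the other way, with 0.744 and 2.4 UMIs per WT cell and 0.2 and 0.44 per twi cell. Erythroid markers had 665 and 119 UMIs, led by the haemoglobin gene Hbb-bs with 373 and 63. Monocyte markers had 170 and 49 UMIs, led by Nr4a1 with 93 and 38, a gene that neutrophils can also express. Progenitor markers had 4 and 0 UMIs and eosinophil or basophil markers 1 and 0. Microglia markers ran at an immature over mature ratio of 0.205 (0.178 to 0.237) in WT, beside the lower inflammatory mediators. In twi the 1 microglia marker with enough UMIs had 1.56 (0.449 to 6.8), from 10 and 4 UMIs. Inflammatory mediators were lower there too, at a ratio of sums of 0.114. The part of other cells in single ratios was not tested beyond the values given without such cells.

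The doublet caller Scrublet marked 5 of 1271 WT cells (0.393%) and 5 of 1207 twi cells (0.414%), none of them immature, and no cell was removed. The X-linked transcript Xist had 0 UMIs in the WT and 6 in the twi immature cells, while the Y-linked Ddx3y had 16 and 4 and Eif2s3y 21 and 3. The pools therefore cannot be assumed to match in sex. Galc, the gene mutated in twi mice, had 1 UMI in WT and 0 in twi immature cells, too few to check the genotype labels.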

How the data were processed

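Per the labels, CD45+ cells from brain were processed with the 10x Genomics single cell 3′ v2 protocol, and the authors deposited 1 matrix of UMI counts per library, with Cell Ranger 2.1.1 and mm10 named in the submitters' processing notes. The study's methods state STAR alignment and an adaptive UMI threshold for cell barcodes. The deposited counts were read with no further normalization, and each library's gated cells were summed and scaled to CPM. Genes with UMI copies in near-identical paralogs may be split between them.

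The members and gene lists were chosen with earlier results of these data known. Neutrophils were gated by summed marker shares. Gene lists used members with at least 10 UMIs over both groups, counts of 2-fold differences used genes with at least 25 UMIs, and log2 ratios used a pseudocount of 0.5 UMIs. Ratios have exact conditional intervals, levels exact Poisson intervals and shares exact (Clopper-Pearson) intervals. The files hold 1 library per genotype, so no test was made.

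Named genes were list members with most UMIs, the 12 highest and 12 lowest immature over mature ratios shared by both libraries (471 eligible genes, mean CPM of at least 100), the 8 highest and 8 lowest twi over WT ratios (664 eligible), and the 10 most abundant genes. Any other list member named was picked after its values were seen. One gene that the rule named is not reported here. Alternatives changed both gates, the mitochondrial limit, the Cd79 limit, the total, the depth, the pseudocount and the cells kept. Scrublet, run through scanpy 1.11.5, marked under 0.5% of cells in each library and was not used to remove cells. Python 3.11.15, numpy 2.4.6, scipy 1.17.1, pandas 2.3.3 and matplotlib 3.10.9 were used, and the scripts were tested on simulated data. Promoter windows came from RefSeq on GRCm38.p6.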

Additional observations from a re-analysis of the deposited data

Results flagged for a closer look

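For 7 genes the twi over WT ratio pointed one way in immature and the other way in mature neutrophils, with both intervals on opposite sides of 1. The stefin A genes BC100530, Stfa1 and Stfa2l1 had ratios of 0.604, 0.615 and 0.217 in immature cells and 3.27, 2.29 and 1.28 in mature cells. Il1b had 0.236 and 1.9, Pim1 0.368 and 1.42, and Cxcl2 0.587 and 1.11. Lyz2 had 1.23 in immature and 0.882 in mature cells. Actb differed between the libraries in the stage comparison, with an immature over mature ratio of 1.17 in WT and 0.592 in twi. Each ratio compares 1 pooled library with another, and the differences were not tested over animals. Only 3 Il1b, 6 Pim1 and 7 Stfa2l1 UMIs lay in the twi immature cells, 5 of the 7 in 1 cell, without which Stfa2l1 had 0.0634. Among cells with a gate share of 10% or more Cxcl2 was higher in twi, at 2.01, while the intervals of Il1b, at 0.235 (0.00549 to 1.59), Pim1, at 0.564 (0.0601 to 2.65), and Stfa2l1, at 5.64 (0.293 to 333), spanned 1. In mature cells at 20% S100a8 and S100a9 or more the twi over WT ratios were 6.2 for BC100530, 2.66 for Stfa1, 1.5 for Stfa2l1, 2.3 for Il1b, 1.32 for Cxcl2, 1.19 (0.763 to 1.82) for Pim1 and 1.1 (1 to 1.21) for Lyz2. The opposite direction was then lost for Lyz2, now on the same side as in immature cells, and for Pim1, whose interval spanned 1.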

How the results depend on the processing

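No paired analysis was possible because each genotype is 1 library. Of the values recomputed under the alternatives listed at the outset, 308 stayed within the interval of the reported value (for a list median, the spread of its members) or, for percentages of genes, 1.5 times, 21 moved and 1 reversed, and under alternatives chosen after seeing the data 100 stayed, 15 moved and 4 reversed. Of those that stayed, 8 and 6 were list medians that changed sign, all of them twi over WT medians of immature cells from -0.21 to 0.30 except the WT S phase median by stage, which turned from 1.28 to -0.54 without cells with 3 or more G2/M UMIs. With a gate at 2% the immature share of WT gated neutrophils was 47.6%. With mature cells at 5% S100a8 and S100a9, 3.67% of genes were at least 2-fold higher in twi mature cells. With Camp, Ngp, Ltf, S100a8, S100a9 and mitochondrial genes out of the total, the surface list median (immature over mature, WT) was -1.19, the twi G2/M median 4.28, and the percent of genes higher and lower 13.9 and 11.3 in WT and 16.3 and 17.8 in twi. Thinned to 1000 UMIs, 4.21% of genes were higher in twi immature cells, 3.41% lower in twi mature cells, and 4.64% higher in immature over mature twi cells. Among genes with at least 100 UMIs, 0.177% were higher and 1.59% lower in twi immature cells and 1.62% lower in twi mature cells.

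Leaving out cells with 2 or more UMIs of other markers left 21 WT and 3 twi immature cells. The immature over mature medians were then -1.21 for the surface list and -0.38 for chromatin and tubulin in WT, which reversed, and -0.049 for the tertiary list in twi. The twi over WT medians were 0.40 for secondary granule, 0.28 for surface and 0.60 for MHC class I genes, with 7.81% of genes higher and 4.17% lower. With erythroid markers ignored (100 and 14 immature cells left) the WT G2/M median reversed to -0.64 and 4.98% of genes were higher in twi mature cells. Without cells with 3 or more G2/M UMIs the WT G2/M and chromatin medians reversed to -1.81 and -0.14 and the twi chromatin median was -0.21; for G2/M that removal fixes the direction. With immature cells at 10% or more only, the WT medians were -4.10 for tertiary, -2.88 for surface, 4.03 for G2/M and 2.01 for chromatin genes, the twi G2/M median was 4.32, the tertiary twi over WT median was 1.08, and 4.34% of genes were higher in twi. With mature cells at 20% S100a8 and S100a9 or more, the immature share of gated neutrophils was 66.2% in WT and 50% in twi, 12.1% of genes were higher in immature WT cells and 20.1% lower in immature twi cells, 4.23% were higher and 3.1% lower in twi mature cells, and the interferon-stimulated twi over WT median of mature cells reversed to -0.36. The stage medians of ribosomal and of ER folding and secretion genes changed sign under it in both libraries, as did that of NADPH oxidase genes in WT.

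Depth limits low genes: 25 twi cells hold 140754 UMIs, where a gene at 0 UMIs can still lie under the limit of 3 counts. The twi over WT ratio of the immature share stayed between 0.199 and 0.224 over its alternatives. The causes of the other reversals were not tested.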
